A study of Mus musculus with 9 samples.

Results

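The enzymes that carry long-chain fatty acids into mitochondria and shorten them there were followed in macrophages from healing mouse skin. The 10 genes, chosen by name from the 18303 gene symbols of the deposited count table, were Cpt1a, Slc25a20, Cpt2, Acadvl, Acadl, Acadm, Hadha, Hadhb, Acaa2 and Decr1, and each of the 10 had a row in the table. The cells came from skin wounds of wild-type C57BL/6J mice, 14 days after injury in 5 libraries and 4 days after injury in 4 libraries. They were sorted as CD45+CD11b+F4/80+ and received no treatment before sequencing of their RNA. Age and sex of the mice, the kind of wound and whether libraries came from separate animals are not given in the sources used here, so each p-value reflects only how these libraries vary, and that variation may be technical. The comparison asked how late wound macrophages differ from early ones.

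Long-chain fatty acids cross the inner mitochondrial membrane as carnitine esters. CPT1A on the outer membrane makes the ester and is the step at which malonyl-CoA restrains the pathway, the carrier SLC25A20 takes the ester across, and CPT2 on the inner membrane turns it back into acyl-CoA. Each turn of beta-oxidation then runs through an acyl-CoA dehydrogenase, a hydratase, a hydroxyacyl-CoA dehydrogenase and a thiolase, and passes electrons to the respiratory chain. Macrophages activated by IL-4 are known for oxidising fatty acids, while macrophages activated by bacterial products rely more on glycolysis.

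The libraries held between 17982633 and 57809918 estimated counts. Day 14 replicate 5 has no counts for the genes that follow Aplp2 on chromosome 9 or lie on the sex chromosomes: 482 of 482 well-counted genes after Aplp2 were at 0 there, as were 323 of 325 on the sex chromosomes and 0 of 9615 such genes elsewhere. Of the 10 enzymes, Slc25a20 lies in the stretch without counts, so its day 14 values come from 4 libraries. Pathway genes from the same stretch were treated alike. Against the macrophage label, the 10 macrophage and sort markers summed to 24520 to 27250 CPM at day 14 and 21800 to 25370 CPM at day 4 (CPM, counts per 1000000 of the TMM-scaled library size). Of these 10, led by Lyz2, Ptprc, Emr1 and Mrc1 rose and Itgam, Cd68, Mertk and Fcgr1 fell, so that the genes of the 3 sort proteins, Ptprc (CD45), Itgam (CD11b) and Emr1 (F4/80), moved apart. Of the 8 adipocyte markers, 7 were below 1 CPM in every library. The 8 skeletal muscle markers summed to 12.3 to 30.4 CPM at day 14 and 8.79 to 32.5 CPM at day 4, and 0 of 7 tested passed. The 11 fibroblast markers counted in all libraries summed to 10720 to 15450 CPM at day 14 and 16490 to 27470 CPM at day 4, with Fn1 the most abundant over all libraries, and 8 of 12 fell (Col1a1, Col1a2, Col3a1, Pdgfra, Pdgfrb, Thy1, Sparc and Col5a1), with a median log2 fold change of -0.995 over the 12. Of 10 dendritic cell markers, 6 rose, and the 9 counted in all libraries summed to 395 to 478 CPM at day 14 and 170 to 257 CPM at day 4. Keratinocyte markers, of which 4 of 5 tested rose, summed to 5.33 to 11.7 CPM at day 14 and 0.692 to 5.77 CPM at day 4, and eosinophil markers, of which 3 of 4 rose, to 14.3 to 20.3 and 4.46 to 7.82 CPM. T and NK cell markers, of which 1 of 2 rose, summed to 51.7 to 71.1 CPM at day 14 and 33.5 to 37.5 CPM at day 4, and B cell markers, of which 1 of 1 rose, to 9.56 to 13.1 and 5.27 to 7.52 CPM. Of the endothelial markers, 3 of 8 rose (Tek, Flt1 and Emcn). Those counted in all libraries summed to 42.6 to 95.3 CPM at day 14 and 53.4 to 58.5 CPM at day 4, and overlapped. All these marker calls stand beside 16.1% of all genes tested that rose and 14.9% that fell. The part of these other cell types in the results below was not tested, and in bulk RNA fewer cells of a type and less RNA per cell cannot be told apart.

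Of the 10 enzymes, 2 rose at day 14 (Acadm and Decr1), 3 fell (Slc25a20, Acaa2 and Cpt2) and 5 did not pass, by edgeR's quasi-likelihood test at an adjusted p of 0.05 (Benjamini-Hochberg, 13322 genes). Over all genes tested, 31.0% were called, 16.1% higher and 14.9% lower at day 14. All 10 differences were small, and ranged from 1.45-fold lower for Slc25a20 to 1.31-fold higher for Decr1, and the median log2 fold change of the 10 was -0.03, beside 0.01 over all genes tested. The calls of Acadm, Decr1, Slc25a20 and Acaa2 held in all 9 fits that left out 1 library each, and that of Cpt2 in 2 of 9. For Slc25a20, the fit without day 14 replicate 5 removed no data and could not test its call. The libraries of the 2 days did not overlap for 5 of the 10 enzymes, against 25.7% of all genes tested.

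**Figure D1:**
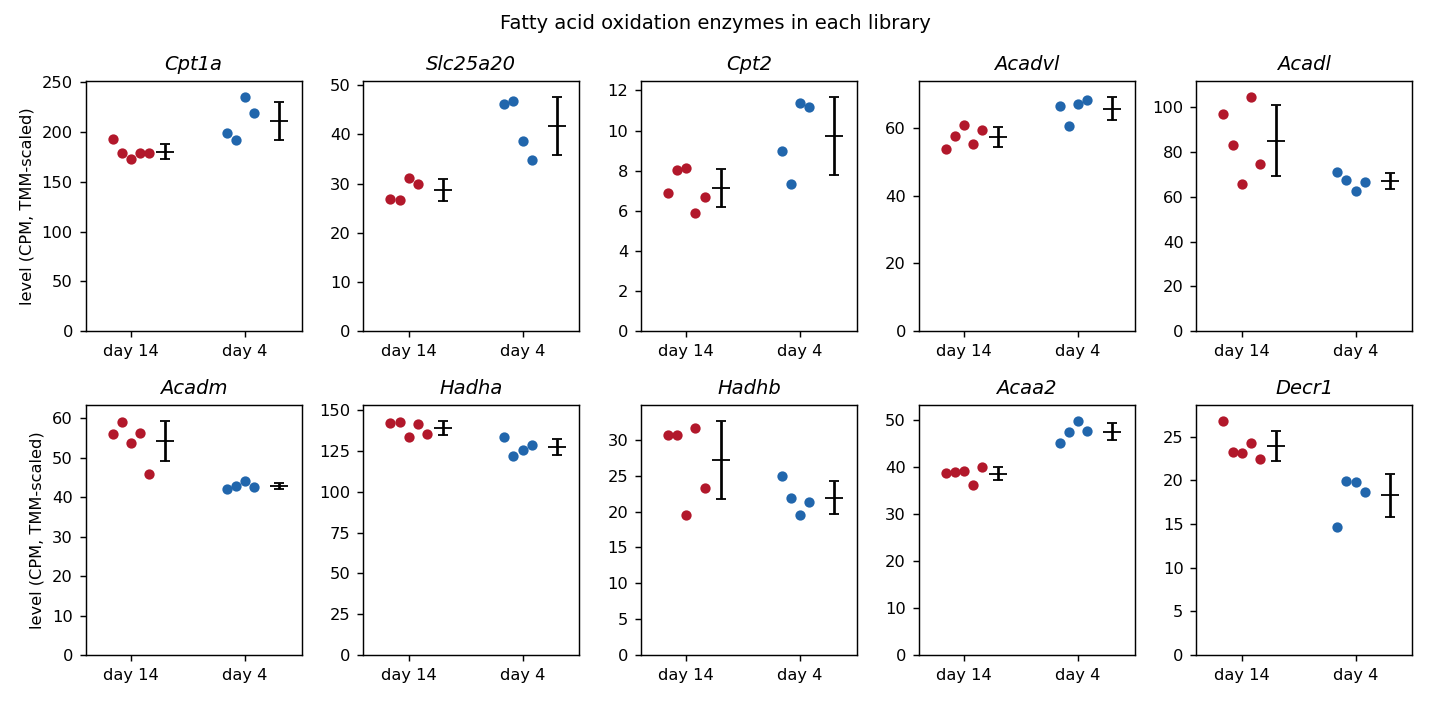
Level of each fatty acid oxidation enzyme in CPM (TMM-scaled, y axis from 0) in each library at day 14 and day 4 after injury (x axis). Points are libraries, and the black bar is the mean ± SD (n = 5 and 4, and 4 and 4 for Slc25a20). Slc25a20 and Acaa2 lie lower at day 14, and Acadm, Hadha and Decr1 higher, with no overlap between the days.

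All 3 genes of the carnitine shuttle had lower means at day 14, and the tests called Slc25a20 and Cpt2. Slc25a20, the carnitine-acylcarnitine carrier (chromosome 9, 108662136 to 108684642, GRCm38, plus strand), had 26.8, 26.6, 31.2 and 29.9 CPM in the 4 day 14 libraries with counts and 46.2, 46.8, 38.7 and 34.9 CPM at day 4. Every day 14 value lay below every day 4 value, and the 2 shallower day 4 libraries were the highest. It fell to 28.6 ± 2.28 CPM at day 14, against 41.7 ± 5.86 CPM at day 4 (SD, n = 4 each; log2 fold change -0.54 ± 0.11 SE, adjusted p = 0.00484). With the 0 of day 14 replicate 5 kept in the fit, this call was lost (adjusted p = 0.574).

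Cpt1a, the outer-membrane carnitine palmitoyltransferase and the most abundant of the 10 in CPM, was at 193, 179, 172.5, 178 and 179 CPM at day 14 and at 199, 192, 235 and 218.5 CPM at day 4. The days overlapped by 1 library: day 14 replicate 1 lay just above day 4 replicate 2. The means were 180.3 ± 7.44 CPM at day 14 and 211 ± 19.3 CPM at day 4 (SD, n = 5 and 4), with a log2 fold change of -0.23 ± 0.08 that missed the threshold (adjusted p = 0.0523). It passed without day 4 replicate 1 or 2 (adjusted p = 0.0478 and 0.0315). Cpt2, the inner-membrane transferase, is the least abundant of the 10, with 110 to 622 counts per library. It was at 6.89, 8.03, 8.14, 5.88 and 6.68 CPM at day 14 and at 8.99, 7.34, 11.4 and 11.2 CPM at day 4, so that day 4 replicate 2 lay inside the day 14 range. It fell to 7.13 ± 0.958 CPM at day 14, against 9.73 ± 1.93 CPM at day 4 (log2 fold change -0.45 ± 0.16, adjusted p = 0.0432). The call, close to the threshold, was lost without any 1 of day 4 replicates 1, 3 and 4 and day 14 replicates 1, 2, 4 and 5 (log2 fold changes from -0.50 to -0.39, adjusted p from 0.0530 to 0.126).

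The acyl-CoA dehydrogenases, which take fatty acids of different chain length, were split between higher and lower means at day 14. Acadm, the medium-chain enzyme (chromosome 3, 153922353 to 153944643, minus strand), was at 56.1, 59.2, 53.8, 56.4 and 45.9 CPM at day 14 and at 42.2, 42.8, 44.0 and 42.6 CPM at day 4. The 4 day 4 libraries lay within 2 CPM of each other and below all day 14 libraries, of which replicate 5 was nearest. Acadm rose to 54.3 ± 5.06 CPM at day 14, against 42.9 ± 0.791 CPM at day 4 (log2 fold change 0.34 ± 0.08, adjusted p = 0.00886).

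Acadl, the long-chain enzyme, had almost the same estimated change but a wide spread among the day 14 libraries. It was at 97.2, 83.2, 65.7, 104.5 and 74.7 CPM at day 14, a coefficient of variation of 18.7%, and at 71.2, 67.5, 62.8 and 66.8 CPM at day 4, one of 5.16%. The day 14 library that reached into the day 4 range was replicate 3. The log2 fold change was 0.34 ± 0.12 (adjusted p = 0.0518), and 0.42 ± 0.10 without day 14 replicate 3 (adjusted p = 0.00814). It also passed without day 14 replicate 5 (adjusted p = 0.0462). Acadvl, the very-long-chain enzyme of the inner membrane, had a mean on the other side: 53.8, 57.6, 60.9, 55.1 and 59.3 CPM at day 14 and 66.5, 60.6, 67.0 and 68.2 CPM at day 4. Day 4 replicate 2 lay inside the day 14 range, and the log2 fold change of -0.19 ± 0.07 missed the threshold (adjusted p = 0.0576). Without day 4 replicate 2 or day 14 replicate 3 it passed (log2 fold changes -0.23 and -0.22, adjusted p = 0.0344 and 0.0346). The gene overlaps Dvl2 on the opposite strand over 45.0% of its exonic bases, and the libraries do not mark the strand. Dvl2 itself averaged 33.1 ± 4.33 CPM at day 14 and 27.8 ± 2.40 CPM at day 4 (adjusted p = 0.0969), and its part in the Acadvl count was not tested.

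Within each library, Acadm and Acadvl could be set against each other without any scaling between libraries. The Acadm to Acadvl count ratio was 1.04, 1.03, 0.882, 1.02 and 0.774 at day 14 and 0.634, 0.707, 0.657 and 0.625 at day 4. Acadm had as many counts as Acadvl, or more, in 3 of the 5 day 14 libraries, and every day 14 ratio was above every day 4 ratio. The mean log2 ratio was 0.53 higher at day 14, with p = 0.0159 in an exact two-sided permutation test, the smallest value that 5 against 4 libraries can give, and an adjusted p of 0.0635 over the 4 ratios tested, which a single ratio at that smallest value cannot improve on.

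The next 3 reactions of long-chain oxidation are joined in the mitochondrial trifunctional protein, whose alpha subunit HADHA carries the hydratase and dehydrogenase and whose beta subunit HADHB carries the thiolase. Both subunit genes had higher means at day 14 and neither passed the test. Hadha was at 142, 143, 134, 142 and 135 CPM at day 14 and at 133, 122, 126 and 128.5 CPM at day 4. The days did not overlap, by a margin of less than 1 CPM, yet the log2 fold change was the smallest of the 10 (139 ± 4.25 CPM at day 14 and 127 ± 4.80 CPM at day 4, log2 fold change 0.13 ± 0.07, adjusted p = 0.173). Hadhb was at 30.7, 30.6, 19.5, 31.7 and 23.3 CPM at day 14 and at 25.0, 21.8, 19.5 and 21.4 CPM at day 4. Day 14 replicates 3 and 5 lay within the day 4 range, while the other 3 stood above it (log2 fold change 0.31 ± 0.14, adjusted p = 0.12, and 0.41 ± 0.12 with adjusted p = 0.0185 without day 14 replicate 3).

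The subunits form one complex, but their counts differed by several fold. The Hadha to Hadhb count ratio was 4.63, 4.65, 6.84, 4.47 and 5.81 at day 14 and 5.33, 5.59, 6.46 and 6.00 at day 4. Day 14 replicate 3 lay above all day 4 ratios, replicate 5 among them and the other 3 below, and the mean log2 ratios differed by -0.16 (exact two-sided permutation test, p = 0.286, adjusted p = 0.286 over 4 ratios). Of the 100-base stretches of Hadhb transcripts, as long as 1 read, 48.0% also occur in the processed pseudogene Gm13910 in the GENCODE vM21 transcripts. For Hadha that share was 0%. A read from such a stretch has no unique place in the genome by itself. The libraries were read as paired ends, and the share of pairs with neither end placed was not measured. How the authors' counting treated such reads is not given in the sources used here, so the level of Hadhb is reported as uncertain.

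Hadha and Hadhb lie head to head on chromosome 5 with 272 bases between their RefSeq starts, so that 1 short stretch precedes both genes. It is shown because the subunit genes share it, with the GC-box letters GGGCGG in capitals.
Hadhb, 250 bases before its start, chr5:30155003-30155252, plus strand, GRCm38.p6: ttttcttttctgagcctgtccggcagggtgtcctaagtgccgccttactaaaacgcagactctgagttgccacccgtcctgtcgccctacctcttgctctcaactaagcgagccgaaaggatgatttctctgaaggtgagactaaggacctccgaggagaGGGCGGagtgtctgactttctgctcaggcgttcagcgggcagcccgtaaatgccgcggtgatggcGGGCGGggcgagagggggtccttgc
The 250 bases before a RefSeq start were matched for 8 of the 10 enzymes. For Cpt1a that start lies inside the RefSeq gene span, which begins at chr19:3322326, so its window lies within the span. GGGCGG, on either strand, occurs in 6 of these 8 and in 32.7% of the 32851 RefSeq promoter windows of the same length. The Hadha and Hadhb windows overlap, and the single match of Hadha is one of the matches of Hadhb, so that 1 site counts for both. Receptors of the PPAR and ERR families, known regulators of fatty acid oxidation genes, bind the half-site AGGTCA, and 3 of the 8 windows hold it on either strand, against 14.0% of all windows. These 3 are shown with the half-site, or its reverse complement TGACCT, in capitals, and they belong to genes whose means lay on different sides: Acadm higher at day 14, Acadvl and Cpt1a lower.
Acadm, chr3:153944644-153944893, minus strand, GRCm38.p6: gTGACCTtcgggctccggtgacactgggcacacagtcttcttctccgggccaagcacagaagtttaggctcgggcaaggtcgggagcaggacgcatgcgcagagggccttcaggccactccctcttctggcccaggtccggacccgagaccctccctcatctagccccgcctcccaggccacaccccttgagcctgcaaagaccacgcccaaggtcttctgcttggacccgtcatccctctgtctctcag
Acadvl, chr11:70015429-70015678, minus strand, GRCm38.p6: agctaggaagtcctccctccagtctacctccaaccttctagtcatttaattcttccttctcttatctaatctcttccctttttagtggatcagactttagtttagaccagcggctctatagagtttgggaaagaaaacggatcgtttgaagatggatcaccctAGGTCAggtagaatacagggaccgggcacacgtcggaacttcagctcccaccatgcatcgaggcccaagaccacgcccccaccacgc
Cpt1a, chr19:3323051-3323300, plus strand, GRCm38.p6: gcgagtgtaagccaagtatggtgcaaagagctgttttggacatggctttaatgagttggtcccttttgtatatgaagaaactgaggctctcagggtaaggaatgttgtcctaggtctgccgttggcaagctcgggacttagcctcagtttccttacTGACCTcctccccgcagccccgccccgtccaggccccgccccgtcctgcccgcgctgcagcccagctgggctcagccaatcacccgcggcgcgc
The half-site repeated in the same direction with 1 base between, and the element TNAAGGTCA, which both contain the half-site, were found in 0 of the 8 windows and in 0.0335% and 1.14% of all windows. CACGTG and TATAAA were also in 0 of 8 (6.02% and 12.4% of all), and CCAAT was found in Cpt1a alone among the 8 (33.8% of all). These are matches of letters and do not show that a factor binds.

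Acaa2, the mitochondrial thiolase that ends each turn for shorter chains (chromosome 18, 74779212 to 74806207, plus strand), had the tightest values of the enzymes that fell. It was at 38.7, 38.8, 39.0, 36.1 and 40.0 CPM at day 14 and at 45.1, 47.5, 49.7 and 47.6 CPM at day 4. The days were separated by about 5 CPM. It fell to 38.5 ± 1.45 CPM at day 14, against 47.5 ± 1.87 CPM at day 4, 1.23-fold lower (log2 fold change -0.30 ± 0.07, adjusted p = 0.00642). The Acaa2 to Hadhb count ratio, which sets the thiolases for shorter and longer chains side by side, was 1.26, 1.27, 2.00, 1.14 and 1.72 at day 14 and 1.803, 2.17, 2.55 and 2.23 at day 4. Day 14 replicate 3 lay among the day 4 ratios and the other 4 below them (mean log2 difference -0.59, exact two-sided permutation test, p = 0.0318, adjusted p = 0.0635 over 4 ratios). It carries the uncertainty of Hadhb.

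Decr1, the dienoyl-CoA reductase needed for unsaturated fatty acids (chromosome 4, 15917240 to 15945377, minus strand), was the enzyme with the largest rise. It was at 26.8, 23.2, 23.1, 24.3 and 22.5 CPM at day 14 and at 14.7, 19.9, 19.9 and 18.6 CPM at day 4. The lowest day 14 library lay above the highest day 4 library, and day 4 replicate 1 was the lowest of all. Decr1 rose to 24.0 ± 1.70 CPM at day 14, against 18.3 ± 2.46 CPM at day 4, 1.31-fold higher (log2 fold change 0.39 ± 0.11, adjusted p = 0.0153).

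**Figure D2:**
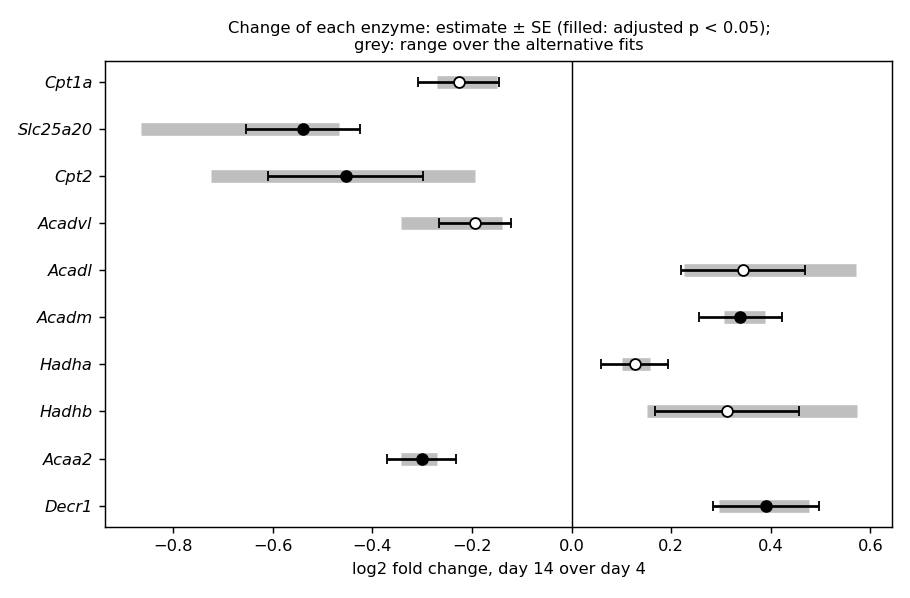
Log2 fold change of each enzyme, day 14 over day 4 (x axis), in the order of the pathway from top to bottom. Points are estimates with SE, filled where the adjusted p was under 0.05, and grey bars span the lowest and highest estimate over the alternative fits. The signs were the same in all 21 alternatives, and the grey bar is widest for Cpt2, Hadhb, Slc25a20 and Acadl.

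The libraries differ in depth, and the depths are unevenly spread over the days: 1 of 5 day 14 libraries and 2 of 4 day 4 libraries held 50162708 counts or more. Among the 6 shallower libraries, 4 from day 14 and 2 from day 4, Slc25a20 passed (log2 fold change -0.69 ± 0.13, adjusted p = 0.00905). Acadm, Decr1 and Acaa2 kept their direction and size there with larger errors and missed the threshold, at 0.33 ± 0.12, 0.41 ± 0.15 and -0.28 ± 0.11 (adjusted p = 0.111, 0.0875 and 0.115). Cpt2 shrank to -0.19 ± 0.20 (adjusted p = 0.585). Among the 3 deeper libraries, 1 from day 14 and 2 from day 4, the log2 fold changes were -0.47 ± 0.13 for Slc25a20, 0.36 ± 0.11 for Acadm, 0.46 ± 0.14 for Decr1, -0.34 ± 0.11 for Acaa2 and -0.72 ± 0.19 for Cpt2. There the lone day 14 library was taken to vary like the day 4 libraries.

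Divided by exon length, the order of the enzymes differed between the days at its upper end. Per kb of exons (GENCODE vM21), Acadl came first at day 14 with 44.4 ± 8.30 CPM per kb, followed by Cpt1a with 41.8 ± 1.72 and Hadha with 34.6 ± 1.06 CPM per kb. At day 4, Cpt1a came first with 48.9 ± 4.47 CPM per kb, followed by Acadl with 35.0 ± 1.81 and Hadha with 31.7 ± 1.20 CPM per kb. The spreads of Acadl and Cpt1a overlapped at day 14 and did not at day 4. Acadm, Acadvl and Acaa2 lay within about 1 CPM per kb of each other at day 14, at 26.5 ± 2.47, 26.4 ± 1.35 and 25.4 ± 0.959 CPM per kb, and could not be ordered. At day 4, Acaa2 and Acadvl, at 31.3 ± 1.23 and 30.2 ± 1.57 CPM per kb, stood above Acadm, at 21.0 ± 0.387 CPM per kb. Slc25a20, at 16.1 ± 1.28 CPM per kb at day 14 and 23.4 ± 3.29 CPM per kb at day 4, stood below Acadm at day 14 and overlapped it at day 4. Below these came Hadhb at 13.1 ± 2.62 and 10.6 ± 1.10 CPM per kb. The lowest were Decr1 at 8.10 ± 0.576 and 6.18 ± 0.830 and Cpt2 at 3.004 ± 0.404 and 4.10 ± 0.812 CPM per kb. Exon lengths were those of all coding transcripts in the basic set of a gene joined together, which may not be the forms these cells make.

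**Figure D3:**
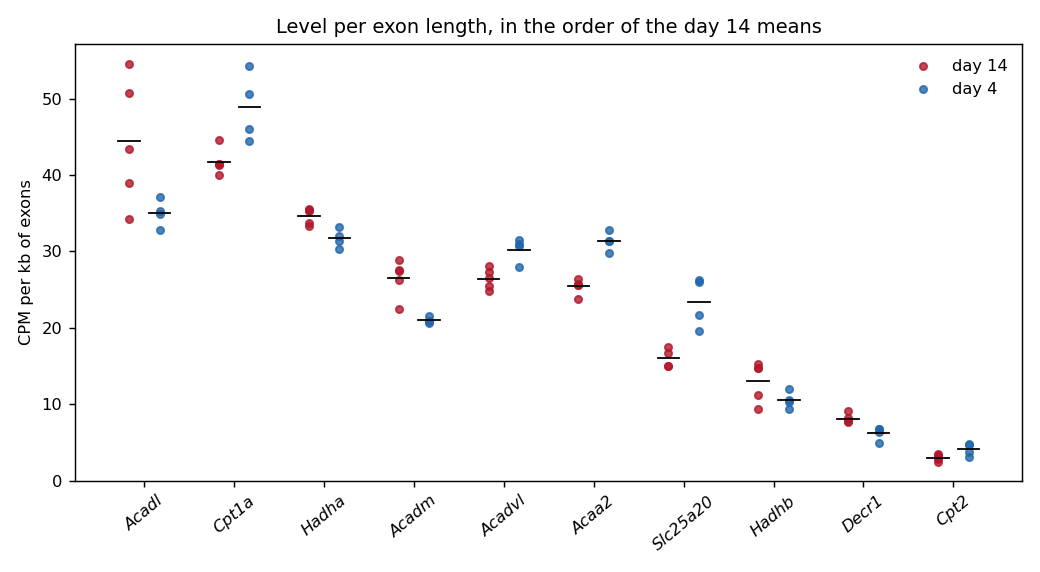
Level of each enzyme per kb of exons (y axis, CPM per kb) in the day 14 libraries (red, left of each pair) and the day 4 libraries (blue, right), with the mean as a black line. Acadl has the highest mean at day 14, where its libraries overlap those of Cpt1a, and Cpt1a at day 4, and Decr1 and Cpt2 are lowest at both times.

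Summed over the 9 enzymes counted in all libraries, the level did not separate the days. The sum was 645, 622, 576.5, 634 and 586.5 CPM at day 14 and 606, 582, 635 and 623 CPM at day 4, and the means were 613 ± 30.0 and 611 ± 23.1 CPM. Cpt1a held 28.1 to 30.5% of it at day 14 and 32.8 to 37.0% at day 4, and Acaa2 5.69 to 6.83% and 7.45 to 8.16%. Acadm held 7.83 to 9.51% at day 14 and 6.84 to 7.36% at day 4, and Decr1 3.73 to 4.15% and 2.43 to 3.42%. The shares of these 4 genes did not overlap between the days, and those of Hadha, 22.04 to 23.2% at day 14 and 19.8 to 22.03% at day 4, only just did not. The shares of the other 4, Cpt2, Acadl, Acadvl and Hadhb, overlapped. Shares of the same sum depend on each other, and how often such shares separate for other genes was not computed.

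Among the day 14 libraries, replicate 3 was the lowest for 4 of the 9 enzymes, Cpt1a, Acadl, Hadha and Hadhb, and the highest for Cpt2 and Acadvl. Replicates 1 and 4 had the highest levels of Acadl and Hadhb. The 6 neutrophil markers counted in all libraries summed to 1634 CPM in day 14 replicate 3. The other day 14 libraries had 241 to 749 CPM. In day 4 replicate 1 the sum was 1647 CPM, beside 580.3 to 690.3 CPM in the other day 4 libraries. Among the day 4 libraries, replicate 1 was lowest for Acadm, Acaa2 and Decr1 and highest for Acadl, Hadha and Hadhb. S100a9 was the most abundant of these markers, while Mpo, Elane and Camp were below 1 CPM in every library with counts. None of the 5 neutrophil markers tested passed, and their part in these levels was not tested. The coefficients of variation of the 10 enzymes had a median of 7.53% at day 14 and 7.17% at day 4. Over the 9538 genes with at least 5 CPM at both times the medians were 10.8% and 11.1%. Genes of like level were not compared, so a spread particular to the enzymes is not shown. The ratio of Cpt1a to Cpt2 counts ranged from 21.2 to 30.4 at day 14 and from 19.5 to 26.2 at day 4 and overlapped (mean log2 difference 0.21, exact two-sided permutation test, p = 0.127, adjusted p = 0.169 over 4 ratios).

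**Figure D4:**
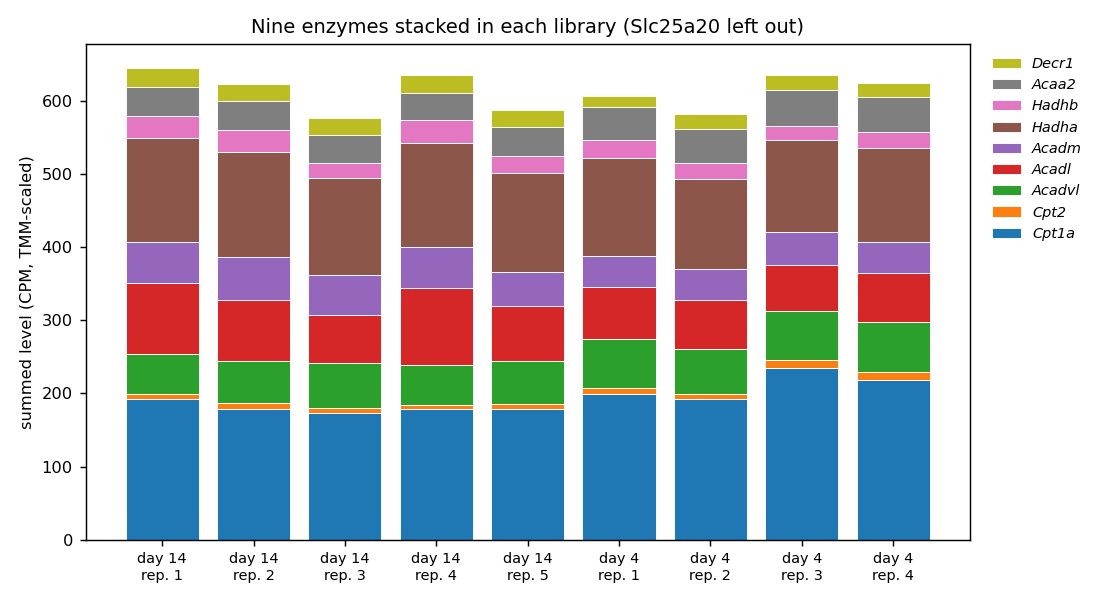
Level in CPM (y axis, TMM-scaled) of the 9 enzymes other than Slc25a20, stacked in each library (x axis, day 14 left and day 4 right). The totals run from 576.5 to 645 CPM at day 14 and from 582 to 635 CPM at day 4, while the Cpt1a and Acaa2 layers are thinner and the Acadm and Decr1 layers thicker at day 14.

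Of 24 other genes of mitochondrial beta-oxidation, propionyl-CoA and carnitine handling tested, 2 rose and 2 fell, 16.7% of the list beside 31.0% of all genes, with a median log2 fold change of 0.00. Crat, the carnitine acetyltransferase, rose to 77.8 ± 4.75 CPM at day 14, against 58.4 ± 8.94 CPM at day 4 (adjusted p = 0.00971), and Slc22a5, the carnitine importer of the cell membrane, to 18.2 ± 1.05 CPM, against 14.8 ± 0.147 CPM (adjusted p = 0.0167, and up to 0.0676 without day 4 replicate 3 or 4). The acyl-CoA dehydrogenase family gene Acad10 fell to 2.50 ± 0.513 CPM, against 4.46 ± 0.960 CPM. Mcee, of propionyl-CoA breakdown, fell to 9.82 ± 0.921 CPM, against 12.3 ± 1.36 CPM (adjusted p = 0.0447), a call lost without any 1 of day 14 replicates 1, 2, 3 and 5 and day 4 replicates 1, 2 and 4 (adjusted p up to 0.110). The enzymes that act on short chains did not pass: Acads was at a mean of 16.5 CPM at day 14 and 21.3 CPM at day 4 (adjusted p = 0.0618), Echs1 at 34.9 and 37.7 CPM and Hadh at 26.8 and 30.3 CPM.

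Genes that bring fatty acids into the cell, activate them or split their CoA thioesters, as the Acot genes do, went both ways. Of 21 tested, 5 rose and 4 fell, 42.9% of the list beside 31.0% of all genes, with a median log2 fold change of -0.01. Slc27a3, a fatty acid transport protein family member with acyl-CoA synthetase activity, was at 13.6, 18.7, 17.4, 14.3 and 18.6 CPM at day 14 and at 1.90, 2.59, 2.60 and 3.02 CPM at day 4. This 6.43-fold rise was the largest in the list (log2 fold change 2.69 ± 0.16, adjusted p = 5.43e-07). Acss1, the mitochondrial acetyl-CoA synthetase, rose to 66.0 ± 3.94 CPM, against 36.5 ± 4.08 CPM at day 4, and the acyl-CoA synthetase Acsl3 rose 1.53-fold. The synthetase Acsl1, which feeds oxidation in several tissues, fell to 35.8 ± 3.19 CPM at day 14, against 50.6 ± 6.36 CPM at day 4 (adjusted p = 0.00281), and Slc27a1, another transport protein, to 40.2 ± 4.33 CPM, against 62.7 ± 7.62 CPM. Fabp5, a fatty acid-binding protein, was 2.15-fold lower at day 14. Cd36, the scavenger receptor that takes up fatty acids and the most abundant of the list, ranged from 845 to 1972 CPM at day 14 and from 697 to 984 CPM at day 4, with day 14 replicate 3 inside the day 4 range, and its call (adjusted p = 0.0361) was lost without any 1 of day 14 replicates 1, 2 and 4 and day 4 replicates 1, 3 and 4 (adjusted p up to 0.103). Acot9 rose 1.39-fold in the libraries with counts, and Acsf3 was 1.43-fold lower with a call lost without any 1 of day 14 replicates 1, 2 and 4 and day 4 replicates 3 and 4 (adjusted p up to 0.0777).

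In peroxisomes, which shorten very long and branched chains, 2 of 17 tested genes rose and 5 fell, 41.2% of the list beside 31.0% of all genes (median log2 fold change -0.17). Abcd2, a transporter of very-long-chain acyl-CoA into peroxisomes, rose to 36.2 ± 7.50 CPM at day 14, against 16.8 ± 2.86 CPM at day 4 (log2 fold change 1.11 ± 0.16, adjusted p = 0.000299). Of those that fell, Eci2, an enoyl-CoA isomerase, averaged 28.1 ± 1.05 CPM at day 14 and 33.9 ± 1.77 CPM at day 4, and Abcd4 at 13.6 ± 1.19 and 18.7 ± 3.01 CPM. The calls of Crot, higher at day 14, and of Acaa1a, Phyh and Abcd3, lower, were lost in several fits without 1 library. Without any 1 of day 14 replicates 1 and 2 all 4 calls were lost. Crot was also lost without day 14 replicate 4 or day 4 replicate 1, 2 or 4 (adjusted p up to 0.0914), and Acaa1a without day 14 replicate 4 or day 4 replicate 4 (up to 0.0623). Phyh was also lost without day 14 replicate 3 or 5 or day 4 replicate 2, 3 or 4 (up to 0.0828), and Abcd3 without day 14 replicate 5 or day 4 replicate 1, 2 or 3 (up to 0.0785). Scp2, the most abundant, averaged 147 ± 17.9 CPM at day 14 and 127 ± 10.7 CPM at day 4 without passing (adjusted p = 0.126).

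Of 13 tested genes of triglyceride breakdown, storage and synthesis and of lysosomal lipid release, 2 rose and 3 fell. These calls were 38.5% of the list, beside 31.0% of all genes, and the median log2 fold change of the list was -0.10. Lpl, lipoprotein lipase, was at 1442, 1632, 1177, 1645 and 1207 CPM at day 14 and at 563, 639, 663 and 484 CPM at day 4. Every day 14 library lay well above every day 4 library (log2 fold change 1.27 ± 0.14, adjusted p = 3.61e-05). Mgll, monoacylglycerol lipase, rose 2.40-fold to 7.66 ± 1.91 CPM. Plin2, the coat protein of lipid droplets, fell to 939 ± 96.4 CPM at day 14, against 1339 ± 184 CPM at day 4, and Pnpla2, the triglyceride lipase of droplets, to 70.2 ± 5.90 CPM, against 86.6 ± 4.71 CPM. Gpd1 was 1.39-fold lower, with a call lost without any 1 of day 14 replicates 1, 2 and 3 and day 4 replicates 1, 3 and 4 (adjusted p up to 0.12).

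Of 18 regulators tested, 2 rose and 1 fell, 16.7% of the list beside 31.0% of all genes (median log2 fold change -0.07). Pparg, a fatty acid-sensing nuclear receptor of macrophages, was at 40.4, 38.2, 25.2, 38.5 and 32.1 CPM at day 14 and at 15.8, 19.9, 20.3 and 15.7 CPM at day 4. The days did not overlap, and day 14 replicate 3, low for Acadl and Hadhb too, was the lowest day 14 library (log2 fold change 0.96 ± 0.15, adjusted p = 0.000438). Nrf1, nuclear respiratory factor 1, fell to 25.6 ± 1.17 CPM, against 32.4 ± 1.82 CPM at day 4. The deacetylase gene Sirt1 was 1.47-fold higher, with a call lost without any 1 of day 14 replicates 1, 2 and 4 and day 4 replicates 3 and 4 (adjusted p up to 0.0848). Ppara and Ppargc1a, the receptor and coactivator best known for inducing these enzymes in liver and muscle, were too low to be tested. Ppard, Esrra and Prkaa1, of which the last encodes a catalytic subunit of AMP kinase, were at 38.7, 17.7 and 69.6 CPM at day 14 and at 48.6, 22.8 and 84.5 CPM at day 4 and missed the threshold (adjusted p = 0.0837, 0.0634 and 0.0665). Klf4, the most abundant, was at 790.3 ± 53.3 and 796 ± 39.8 CPM.

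Genes that PPARs induce outside beta-oxidation went both ways. Of 12 tested, 4 rose and 4 fell, 66.7% of the list beside 31.0% of all genes (median log2 fold change 0.06). Angptl4, a secreted inhibitor of lipoprotein lipase, fell to 15.6 ± 2.18 CPM at day 14, against 42.0 ± 9.65 CPM at day 4, and Hilpda, a droplet protein that low oxygen also induces, to 159 ± 21.8 CPM, against 349 ± 74.3 CPM. Plin2 and Gpd1, whose values stand above and which stand in this list too, make up the 4. The genes that rose were Txnip, Lpin1, Cd36 and Pdk4. Txnip, a regulator of glucose uptake, rose 1.63-fold to 495 ± 62.5 CPM and Lpin1, a phosphatidate phosphatase, 1.43-fold to 67.1 ± 11.1 CPM. Pdk4, a kinase that restrains pyruvate oxidation when fat is burnt, averaged 2.09 ± 0.526 CPM at day 14 and 1.23 ± 0.363 CPM at day 4, with a call lost without any 1 of day 14 replicates 1, 2, 4 and 5 and day 4 replicates 3 and 4 (adjusted p up to 0.139).

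The opposite pathway, synthesis and desaturation, was also split. Of 18 tested genes, 5 rose and 6 fell, 61.1% of the list beside 31.0% of all genes (median log2 fold change -0.05). Elovl6, which lengthens saturated chains, rose 2.80-fold to 19.9 ± 6.66 CPM, and the elongase Elovl5 to 186 ± 24.2 CPM (n = 4), against 118 ± 12.1 CPM at day 4. The desaturases Scd1 and Scd2 moved apart: Scd1 rose to 31.9 ± 8.55 CPM at day 14, against 14.6 ± 4.98 CPM at day 4, and Scd2 fell to 45.3 ± 10.5 CPM, against 95.2 ± 10.96 CPM. Fads1 rose 1.34-fold and Elovl7, at 1.32 ± 0.223 CPM, 2.04-fold. The 6 that fell were Scd2, Fads2, Me1, Srebf1, Slc25a1 and Mcat. Acly, which makes cytosolic acetyl-CoA and was the most abundant, averaged 233 ± 2.44 CPM at day 14 and 254 ± 15.6 CPM at day 4 without passing (adjusted p = 0.213). Acaca, whose product malonyl-CoA restrains CPT1A, was at 19.4 CPM at both times (log2 fold change 0.00 ± 0.13).

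**Figure D5:**
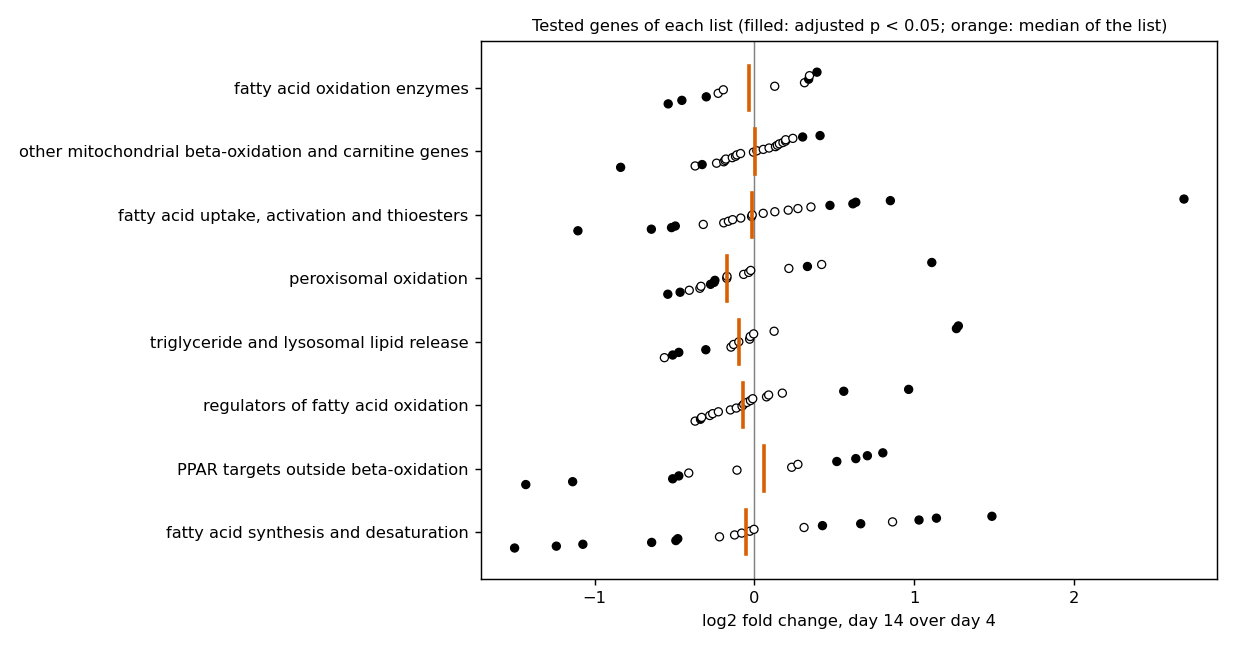
Log2 fold change, day 14 over day 4 (x axis), of every tested gene of the 10 enzymes and of 7 related lists (rows). Points are genes, filled where the adjusted p was under 0.05, and the orange line is the median of the list. The medians lie between -0.17 and 0.06, and the points farthest out belong to uptake, lipid release, PPAR target and synthesis genes rather than to the 10 enzymes.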

How the data were processed

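RNA of sorted wound macrophages was sequenced as paired ends of unstranded TruSeq libraries, per the labels' protocols. The tools named, with build mm10, are HISAT2 2.1.0, CASAVA 1.8, Partek 6.6, SAMtools 1.4 and DESeq2, per the submitters' processing notes. Their roles, annotation and counting mode are not given in the sources used here. The authors deposited estimated counts per gene symbol, not normalized, of which 15.0 to 19.2% per library are not whole. They were rounded. A deposited table of normalized values was not used.

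Library sizes and TMM factors came from the genes outside the stretch without counts in day 14 replicate 5. The 1504 genes in that stretch (RefSeq positions, GRCm38.p6: 17102 symbols matched, 1098 by an older name and 103 not) were fitted on the 8 other libraries, and all others on 9. Low counts were removed with filterByExpr. Day 14 was tested against day 4 with edgeR 4.0.16 (robust glmQLFit, glmQLFTest) in R 4.3.3, with p-values adjusted over both fits together, and SEs were derived from the F statistic. The fit was also run on simulated data with a common dispersion and without the genes of that stretch. That run tested neither the split fit nor the gene-wise spread of these data. Ratios were tested with exact permutation tests (scipy 1.17.1). Alternatives were other scalings, DESeq2 1.42.0, limma-voom 3.58.1, filters, non-robust dispersion, a library size covariate, depth classes and leaving out each library.

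The enzymes and lists were chosen with earlier results of these data known. Besides the 10 enzymes, the text names from each list the most abundant gene, the 3 with the lowest p and all that pass where 5 or fewer do in 1 direction. Acads, Echs1, Hadh, Ppara, Ppargc1a, Ppard, Esrra, Prkaa1, Acaca, Dvl2, the cell type markers and the genes of synthesis named without values were added after their values were seen. Precision is limited by the number of libraries. The lowest count of a member outside the missing stretch was 110.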

Additional observations from a re-analysis of the deposited data

How the results depend on the processing

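Over 21 alternatives, all 10 enzymes kept the sign of their log2 fold change. The calls of Acadm, Decr1 and Acaa2 were lost in 1 alternative, the 6 shallower libraries, that of Slc25a20 in 1, with all 9 libraries for every gene, and that of Cpt2 in 12. Cpt1a passed in 6, Acadl in 6, Acadvl in 5, Hadhb in 2 and Hadha in 0. Of the 10 enzymes, 8 were called with DESeq2, beside 4727 of 13322 genes tested. With all 9 libraries for every gene, 3 enzymes were called, beside 3403 of 13306 genes. In the 6 shallower libraries it was 1 enzyme, beside 2075 of 13507 genes. The number of enzymes called ranged from 4 to 8 when 1 library was left out. Without day 14 replicate 3 it was 8 (4 higher and 4 lower), beside 4822 of 13249 genes. Over all genes, 4132 of 13322 were called in the main fit (2150 higher and 1982 lower), and 3040 to 4822 without 1 library. The causes were not tested. The 4 ratios kept their direction and missed the threshold in all alternatives, which says little, since over 4 ratios a single one at the smallest possible p reaches 0.0635 with all libraries and could not pass with fewer. Their log2 differences without 1 library ranged from -0.26 to -0.11 (Hadha to Hadhb), from 0.15 to 0.30 (Cpt1a to Cpt2), from 0.49 to 0.60 (Acadm to Acadvl) and from -0.71 to -0.51 (Acaa2 to Hadhb). Of the 39 other named genes called, 28 passed in all fits without 1 library, 19 in the 6 shallower and 29 in the 3 deeper libraries. Klf4 changed sign, to 0.0193 with upper-quartile scaling, and ranged from -0.0481 to 0.0210 without 1 library, above 0 without day 4 replicate 2 (0.0204) or day 14 replicate 5. No paired analysis was possible because the labels give the libraries of the 2 days no shared replicate numbers. Cpt2 had the lowest counts of the 10, and what depth adds to its spread was not tested.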
